A study of Arabidopsis thaliana with 6 samples.

Results

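This comparison set Arabidopsis thaliana seedlings kept under prolonged induction against empty-vector control seedlings, on 4 of the 6 ATH1 arrays of a study of nuclear transcript levels when chloroplast division is inhibited. The arrays were taken by their titles, 2 of prolonged induction and 2 of control. Prolonged seedlings (background given as Ler-1, variation given as T-DNA) were sown on lehle medium with 2 µM inducer and sprayed with it every 24 h up to harvest at 14 days. Control seedlings (Ler-0, T-DNA) carried only the empty PER-10 vector and received 1 spray of 2 µM estradiol at day 13, 24 h before harvest. The labels spell the inducer 7-B-estradiol for the prolonged group and 17-B-estradiol for the controls. Both groups were whole plants of growth stage 1.04 with 4 rosette leaves, kept in constant light. Both also had 3 days of cold. No source used here names the transgene that inhibits division, so its own transcript could not be checked. The line, the labelled background and the length of exposure to inducer all differed between the groups and cannot be told apart. The labels do not say that the 2 arrays of a group were grown as separate cultures, and the scatter that the p-values rest on may therefore be technical. The third group of the series, temporal induction, received 1 spray of 2 µM inducer at day 13, 24 h before harvest at 14 days. Its seedlings were also of growth stage 1.04 and had 3 days of cold. Its arrays entered no fold change. They entered the estimate of the spread, the choice of probe sets to test and the choice of 1 probe set per gene. Some of its signals are given beside the others.

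Chloroplasts multiply by binary fission, in which rings of FtsZ and dynamin-related proteins constrict the organelle. When division is blocked, mesophyll cells hold few and very large chloroplasts. Most chloroplast proteins are encoded in the nucleus, including the Calvin cycle enzymes, the light harvesting antenna and the enzymes of chlorophyll synthesis, whereas the plastid genome encodes photosystem cores, ribosomal proteins and subunits of the plastid RNA polymerase. Autophagy delivers cytoplasm, and parts of chloroplasts, to the vacuole for breakdown, and in leaves it is known for recycling nitrogen in senescence and starvation.

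Each of 22746 probe sets that are not Affymetrix controls had 1 signal per array, a microarray intensity on a linear scale, and 15922 were tested after the lowest 30% were left out. A probe set passed at an adjusted p under 0.05 in limma (Benjamini-Hochberg). A probe set is called well measured here where its mean signal was 100 or more in both groups, as 6192 were. On log2 signals of these, the 2 prolonged arrays correlated at r = 0.952 and the 2 control arrays at r = 0.958, against 0.895 to 0.902 between the groups (across probe sets, which are not replicates). The 3′ to 5′ signal ratio of the actin control, a sign of RNA integrity, was 6.14 and 4.45 in prolonged seedlings, against 4.19 and 4.19 in control seedlings. The same ratio overlapped between the groups for GAPDH (2.22 and 2.67, against 1.82 and 2.38) and for ubiquitin (1.87 and 1.69, against 1.66 and 1.79). The 25S ribosomal RNA control probe set read 1026 and 1674 in prolonged seedlings, against 2701 and 4532 in control seedlings, with no overlap. The part of RNA quality in the results was not tested.

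Transcripts that differed after prolonged induction were found at every signal level. Of the 15922 tested probe sets 1107 passed (6.95%), 600 higher (3.77%) and 507 lower (3.18%). Of the 6192 well-measured ones 775 passed (12.5%), 371 higher (5.99%) and 404 lower (6.52%). Well-measured probe sets thus made up 70.0% of all calls, and their median standard error was 0.21 on the log2 scale, against 0.32 over all tested. The smallest log2 fold change called among them had a size of 0.44 and the median a size of 0.86. Rises were the larger changes: 154 well-measured probe sets were called and over 2-fold higher, and 84 over 2-fold lower. Both prolonged arrays lay above or below both control arrays for 54.3% of the well-measured probe sets, 51.3% of those with 1 symbol and 47.7% of all tested. An unadjusted p under 0.05 was reached by 28.3% of the well-measured, 25.6% of those with 1 symbol and 20% of all tested. These calls rest on a variance prior that follows signal level: without that trend 12 well-measured probe sets passed, 11 higher and 1 lower, where 1078 had an unadjusted p under 0.05. The balance of rises and falls is not firm, since rises outnumbered falls after quantile normalization (395 and 380), median centring (305 and 251) and cyclic loess (415 and 376).

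**Figure D1:**
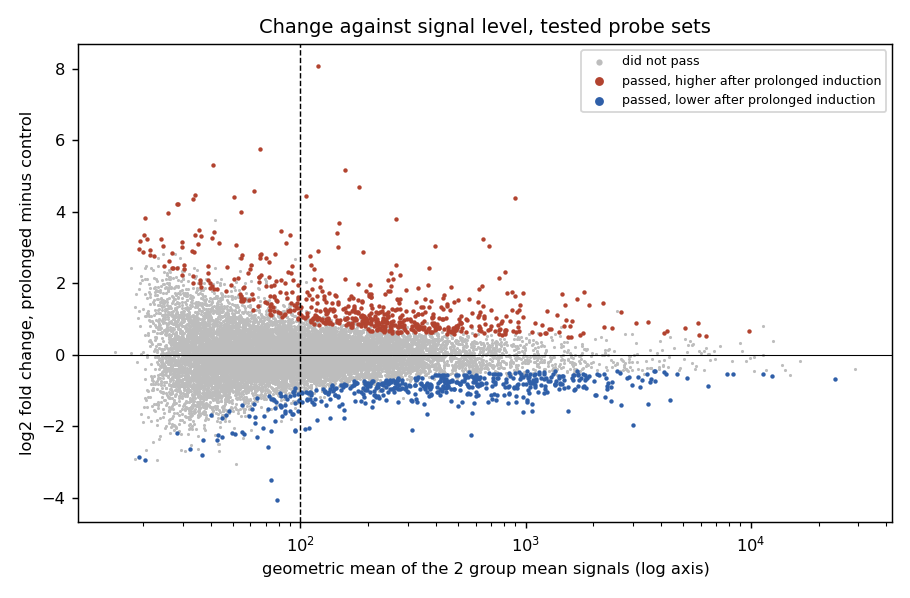
Log2 fold change (prolonged minus control, y axis) against signal level (geometric mean of the group means, log x axis) for the 15922 tested probe sets. Red points passed and were higher (600), blue points passed and were lower (507), grey points did not pass, and the dashed line marks a signal of 100. The cloud narrows towards high signal, and the largest fold changes sit at low and middle signal.

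The direction of the calls depended on signal level. Among probe sets with a mean signal of 50 to 100 over the 4 arrays, 80 were higher and 44 lower. At 200 to 500, 224 of 2174 were higher and 151 lower. At 1000 to 2000 the order turned, with 32 of 278 higher (11.5%) and 85 lower (30.6%), and at 2000 and over 16 of 171 were higher (9.36%) and 42 lower (24.6%). The median log2 fold change was −0.23 at 1000 to 2000 and −0.24 at 2000 and over, against −0.02 over all tested probe sets. At 2000 and over the surplus of falls depended on scaling: quantile normalization gave 26 higher and 28 lower (median −0.04) and cyclic loess 28 and 27 (median −0.05). At 1000 to 2000 falls outnumbered rises after quantile normalization (49 higher, 64 lower), cyclic loess (45, 75) and median centring (26, 55), but without the intensity trend 3 were higher and 0 lower.

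**Figure D2:**
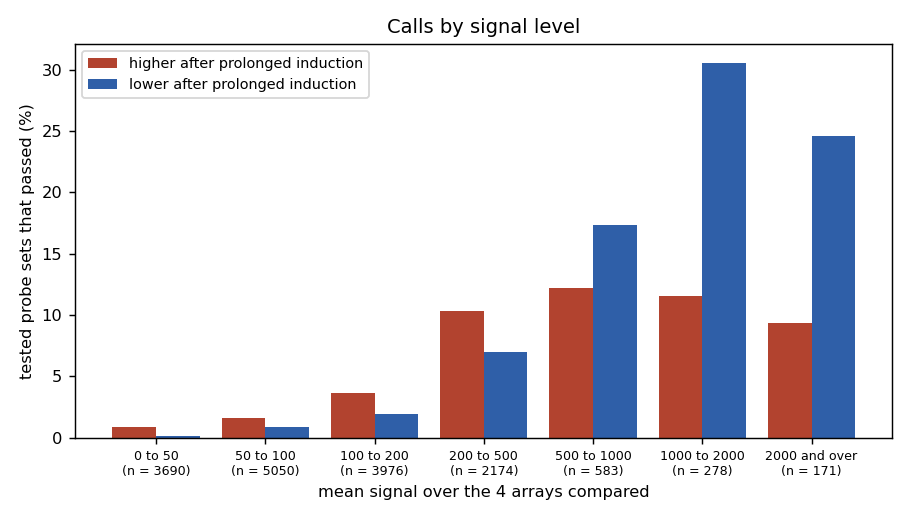
Share of tested probe sets that passed, in percent (y axis), by mean signal over the 4 arrays compared (x axis, with the number tested). Red bars are probe sets higher after prolonged induction and blue bars lower ones. Below a signal of 500 the red bars are the taller (10.3% against 6.95% at 200 to 500), and from 500 upwards the blue bars are (30.6% against 11.5% at 1000 to 2000).

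Beyond the 10 largest rises and 10 largest falls of the whole table, the leading well-measured changes were mostly of genes for which the tables used here give a locus and no function. Of 3075 well-measured probe sets with 1 symbol, 331 passed (10.8%), 161 higher (5.24%) and 170 lower (5.53%), and 259 of the 331 had only a locus. The largest of these rises was AT4G12490, at 1939 and 2028 in prolonged seedlings, against 208 and 212 in control seedlings (log2 fold change 3.24 ± 0.13 SE, limma adjusted p = 2.70e-07). AT3G18250 read 557 and 717 in prolonged seedlings, against 114 and 109 in control seedlings (log2 fold change 2.50 ± 0.18 SE), and AT2G20870 read 859 and 850.4 in prolonged seedlings, against 148 and 174 in control seedlings (log2 fold change 2.41 ± 0.15 SE). These 3 were the ones among 97 genes that passed and are named here that also passed without the intensity trend (adjusted p up to 0.0402).

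The next rises, in order of size, were AT1G72060, AT2G38870, AT1G65500 and AT3G15450, with log2 fold changes of 2.23, 1.90, 1.79 and 1.73. AT1G72060 had unequal prolonged arrays, 428 and 801, against 121 and 128 in control seedlings. AT3G15450 read 1370.0 and 1639 in prolonged seedlings, against 397 and 517 in control seedlings. AT1G52200, AT1G01240, AT4G01870, AT2G15960, AT3G15630 and AT2G05540 rose by log2 fold changes of 1.48 to 1.68, with no overlap between the arrays of the groups. Among them AT2G15960 read 1024 and 883 in prolonged seedlings, against 367 and 288 in control seedlings.

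On the falling side AT3G16670 led, at 126 and 180.5 in prolonged seedlings, against 651 and 638 in control seedlings (log2 fold change −2.10 ± 0.20 SE, limma adjusted p = 1.59e-04). AT3G05730 read 196 and 215 in prolonged seedlings, against 711 and 593 in control seedlings (log2 fold change −1.66 ± 0.16 SE), and AT4G29020 read 686 and 618 in prolonged seedlings, against 1523 and 1639.5 in control seedlings (log2 fold change −1.28 ± 0.13 SE). AT5G08050, AT1G62780, AT1G29070, AT4G30650 and AT1G09750 fell by log2 values of 1.27 to 1.35, and AT5G58370, AT5G41670, AT5G03350 and AT4G10480 by 1.13 to 1.21. Leaving out each array in turn ended the call of AT5G58370 without control replicate 1, and of none of the other 11.

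Several genes of autophagy and of vacuolar protein breakdown were higher in prolonged seedlings. Of 9 well-measured members 5 rose, where 5.99% of all well-measured probe sets did, and 0 fell, where 6.52% did. Their median log2 fold change was 0.63, against −0.02 over all well-measured probe sets. The 5 risers lay at mean signals from 100 to 2000. Of tested probe sets, 3.65% rose at 100 to 200, 10.3% at 200 to 500, 12.2% at 500 to 1000 and 11.5% at 1000 to 2000. GAMMA-VPE, the vacuolar processing enzyme of vegetative tissue, a cysteine protease that matures other vacuolar proteins, read 2615 and 2219 in prolonged seedlings, against 888 and 959 in control seedlings (log2 fold change 1.38 ± 0.13 SE, limma adjusted p = 1.64e-04). The other 4 risers belong to the ATG8 family, ubiquitin-like proteins that are joined to the lipid of the autophagosome membrane.

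ATG8E read 282 and 201 in prolonged seedlings, against 117 and 92.3 in control seedlings (log2 fold change 1.20 ± 0.23 SE), and ATG8C 264 and 201 in prolonged seedlings, against 125 and 124 in control seedlings (0.89 ± 0.21 SE). APG8H, which the annotation also lists as ATG8I, read 421 and 484 in prolonged seedlings, against 280.3 and 256 in control seedlings (0.75 ± 0.15 SE). ATG8F read 1246 and 1006 in prolonged seedlings, against 775 and 678 in control seedlings (0.63 ± 0.14 SE). For all 4 both prolonged arrays lay above both control arrays.

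The other well-measured members did not pass. APG8A, of the same family, read 567 and 409 in prolonged seedlings, against 294 and 338 in control seedlings (adjusted p = 0.0711), and ATG8D 169 and 213 in prolonged seedlings, against 166 and 144 in control seedlings (0.472). ATG3, the enzyme that joins ATG8 to lipid, read 121 and 114 in prolonged seedlings, against 139 and 97.0 in control seedlings (log2 fold change 0.02, adjusted p = 0.984), and AT5G66930 had a log2 fold change of 0.59 (adjusted p = 0.280). All 9 fold changes were above 0 under each scaling tried, that of ATG3 turning below 0 without control replicate 2 or prolonged replicate 1, and 7 of the 9 had arrays that did not overlap, as 54.3% of all well-measured probe sets had. The count of rises was 2 without control replicate 2, 2 without prolonged replicate 1, 3 without either temporal array and 0 without the intensity trend, and GAMMA-VPE passed without each of the 6 arrays in turn. ATG8B, ATG8G, ATG8H, CP1 and BETA-VPE, below a signal of 100 in a group, did not pass either.

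**Figure D3:**
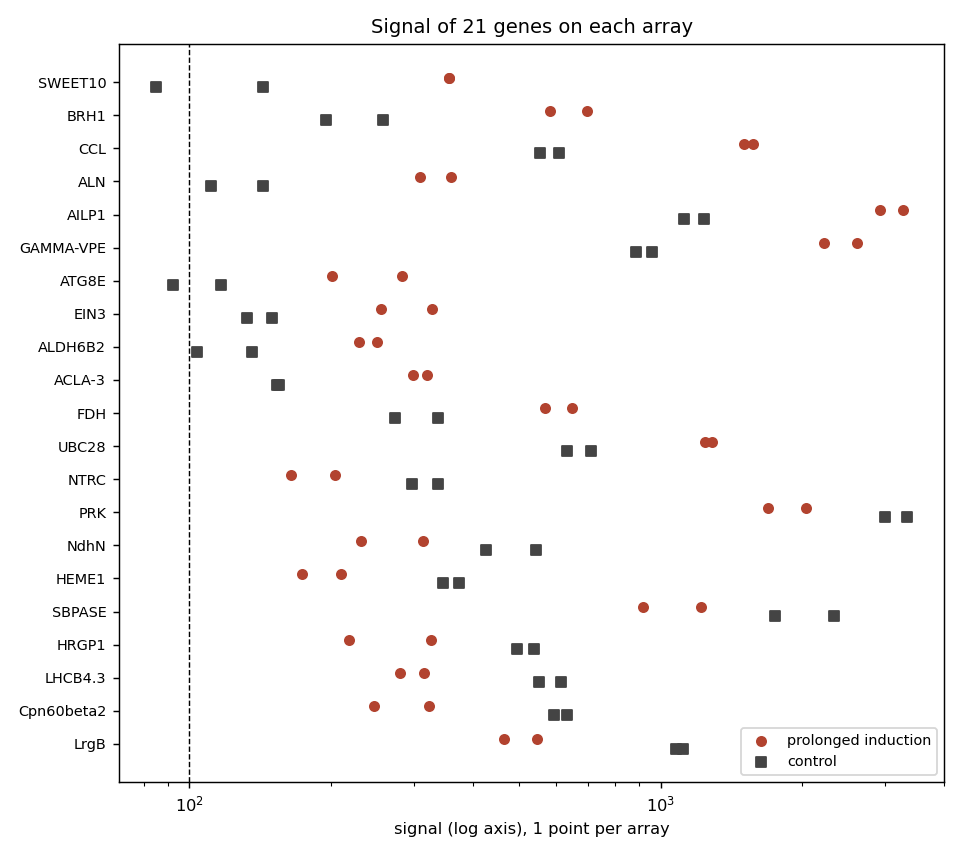
Signal on each array (log x axis, 1 point per array) of 21 genes that passed and are described in the text, with risers in the upper 12 rows and fallers in the lower 9. Red circles are prolonged seedlings, grey squares control seedlings, and the dashed line marks a signal of 100. In no row do the circles and squares overlap, as for GAMMA-VPE at 2219 and 2615 in prolonged seedlings, against 888 and 959 in control seedlings.

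Over the whole table, 586 well-measured genes had a name that tells of a function, and 72 of them passed, 34 higher and 38 lower. That is close to the 12.5% of all well-measured probe sets that passed, so the number says nothing particular of these genes. The set was drawn up after the values were seen, so the genes are given one by one and no function is tested for it. ALN, allantoinase, which opens the ring of allantoin in purine breakdown, read 359 and 309 in prolonged seedlings, against 111 and 143 in control seedlings (log2 fold change 1.40 ± 0.19 SE, limma adjusted p = 0.00157). ALDH6B2, an aldehyde dehydrogenase of valine breakdown, read 229 and 250.3 in prolonged seedlings, against 104 and 136 in control seedlings (log2 fold change 1.01 ± 0.20 SE), and ALDH7B4, of the same superfamily, 323 and 282 in prolonged seedlings, against 179 and 186 in control seedlings (0.73 ± 0.18 SE). FDH, the mitochondrial enzyme that oxidises formate, read 649 and 567 in prolonged seedlings, against 273 and 337 in control seedlings (1.00 ± 0.16 SE). In each of these 4 the prolonged arrays lay above the control arrays. ALDH6B2 passed in 3 of 6 fits with an array left out, and ALDH7B4 failed without any 1 of the 6 arrays.

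Other single genes that rose were ACLA-3, a subunit of the ATP-citrate lyase that makes cytosolic acetyl-CoA, at 299 and 320.1 in prolonged seedlings, against 155 and 153 in control seedlings (log2 fold change 1.00 ± 0.17 SE), and GLY2, a glyoxalase II of methylglyoxal detoxification, at 548 and 378 in prolonged seedlings, against 250.3 and 286 in control seedlings (0.77 ± 0.19 SE). Among sugar carriers SWEET10, of the sugar efflux family, read 355 and 356 in prolonged seedlings, against 85.1 and 143 in control seedlings (1.69 ± 0.23 SE). It was the only 1 of 8 well-measured members of the transporter list to pass, where 12.5% of all well-measured probe sets did. SWEET11, of the same family, read 1757 and 1351 in prolonged seedlings, against 1430.3 and 1251 in control seedlings (log2 fold change 0.20, adjusted p = 0.519). SFP1, a sugar-porter family gene outside that list, read 314 and 239 in prolonged seedlings, against 147 and 157 in control seedlings (0.85 ± 0.22 SE). Like GLY2, it passed in 1 of 6 fits with an array left out.

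Single ubiquitin-linked genes rose. UBC28, a ubiquitin-conjugating enzyme, read 1242 and 1284 in prolonged seedlings, against 632 and 711 in control seedlings (log2 fold change 0.91 ± 0.13 SE, limma adjusted p = 0.00162). It was the only 1 of 11 well-measured members of the proteasome and ubiquitin list to pass, where 12.5% of all well-measured probe sets did. UBC29 read 284 and 233 in prolonged seedlings, against 181 and 166 in control seedlings and did not pass (adjusted p = 0.0969). BRH1, a RING-H2 protein named for its response to brassinosteroid, read 697 and 583 in prolonged seedlings, against 195 and 258 in control seedlings (log2 fold change 1.51 ± 0.18 SE), and RING1, a ubiquitin ligase, 279 and 237 in prolonged seedlings, against 137 and 142 in control seedlings (0.88 ± 0.19 SE), which passed in 4 of 6 fits with an array left out. AILP1 read 3261 and 2923 in prolonged seedlings, against 1234 and 1119 in control seedlings (1.39 ± 0.12 SE), and CCL (CCR-like) read 1574 and 1499 in prolonged seedlings, against 555 and 608 in control seedlings (1.40 ± 0.13 SE). Both passed without each of the 6 arrays in turn.

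Among single risers EIN3, the transcription factor at the end of the ethylene pathway, read 327 and 255 in prolonged seedlings, against 149.7 and 133 in control seedlings (log2 fold change 1.04 ± 0.19 SE). bZIP44, a basic leucine-zipper factor, read 202 and 216 in prolonged seedlings, against 113 and 101 in control seedlings (0.97 ± 0.23 SE), and AT5G61590 (DEWAX), an ERF repressor of wax synthesis, 609 and 569.8 in prolonged seedlings, against 348 and 343 in control seedlings (0.77 ± 0.14 SE). DI19, a zinc-finger protein named as drought-induced, had unequal prolonged arrays, 1465 and 2053 in prolonged seedlings, against 1154 and 1093 in control seedlings (0.63 ± 0.16 SE). The arrays of the groups did not overlap for any of these 4. With each array left out in turn EIN3 and AT5G61590 passed in 5 of 6 fits, both failing without prolonged replicate 1, bZIP44 in 2 and DI19 in 1.

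Further risers with a function name were as follows. TIL, the temperature-induced lipocalin, read 892 and 965 in prolonged seedlings, against 507 and 549.6 in control seedlings (log2 fold change 0.81 ± 0.13 SE), and SRC2, named for regulation by cold, 637 and 652 in prolonged seedlings, against 376 and 389 in control seedlings (0.75 ± 0.13 SE). TET8, a tetraspanin of small secreted vesicles, read 607 and 594 in prolonged seedlings, against 357 and 394 in control seedlings (0.68 ± 0.14 SE). WLIM2b, which binds actin filaments, YLS5, CUTA and CP5 rose by log2 fold changes of 0.67, 0.78, 0.92 and 0.65. With each array left out in turn TIL and SRC2 passed in 6 of 6 fits, WLIM2b and CP5 in 4, TET8 and YLS5 in 3 and CUTA in 1. TBL40 (AT2G31110), which passed in 6 of 6, of a family that acetylates cell wall polymers, read 288 and 253 in prolonged seedlings, against 110.0 and 130.1 in control seedlings (1.17 ± 0.19 SE).

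In the glucosinolate list, which holds mostly β-glucosidases, 2 of 9 well-measured genes rose, where 5.99% of all well-measured probe sets did, and 0 fell, with a median log2 fold change of 0.03. BGLU44, a β-glucosidase, read 639 and 470.0 in prolonged seedlings, against 249 and 287 in control seedlings (log2 fold change 1.03 ± 0.19 SE), and BCAT4, which starts methionine chain elongation for glucosinolates, 1979.9 and 1663 in prolonged seedlings, against 1289 and 1307 in control seedlings (0.48 ± 0.13 SE, adjusted p = 0.0488). PYK10, a β-glucosidase of roots, read 3820.1 and 2618 in prolonged seedlings, against 4006 and 4659.6 in control seedlings and did not pass (adjusted p = 0.169). BGLU44 passed in 5 of 6 fits with an array left out and BCAT4 in 1. Without prolonged replicate 1 this list had 0 rises and 1 fall.

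Genes of the Calvin cycle and photorespiration were lower. All 4 well-measured members fell, where 6.52% of all well-measured probe sets did, and their median log2 fold change was −0.66. Their mean signals lay above 1000, where falls were more common: 30.6% of tested probe sets at 1000 to 2000 and 24.6% at 2000 and over. Beside PRK (−0.77 ± 0.13 SE), SBPASE (−0.93 ± 0.17 SE) and RCA (−0.53 ± 0.14 SE), the fourth was HPR, the peroxisomal hydroxypyruvate reductase of photorespiration, at 1930.1 and 1752 in prolonged seedlings, against 2358 and 3065 in control seedlings (log2 fold change −0.55 ± 0.14 SE, limma adjusted p = 0.0458). Outside that list LrgB, known as the glycolate and glycerate carrier of the chloroplast envelope, which photorespiration also uses, read 546 and 465 in prolonged seedlings, against 1114 and 1078 in control seedlings (log2 fold change −1.12 ± 0.14 SE, limma adjusted p = 0.00118). HPR and RCA are the less certain of these: 2 of the 4 passed after quantile normalization, median centring, cyclic loess, without a filter and in the fit of the 2 groups alone, 1 without prolonged replicate 2, and 0 without the intensity trend. LrgB passed without each of the 6 arrays. In whole seedlings, fewer cells of a type and less transcript per cell cannot be told apart, and of the 9 mesophyll markers listed only RCA and PRK could be read.

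The light harvesting list held only the LHCB4 isoforms and the genes LIL3:1 and LIL3:2, so it does not speak for the antenna as a whole. Of its 5 well-measured members 2 fell, against the same background of 6.52%, with a median of −0.47. They were LHCB4.3 (−0.97 ± 0.15 SE), which passed without each of the 6 arrays in turn, and LIL3:1 (−0.75 ± 0.17 SE), which passed in 3 of 6 such fits. Of tested probe sets 6.95% fell at a mean signal of 200 to 500, where LHCB4.3 lay, and 17.3% at 500 to 1000, where LIL3:1 lay. LHCB4.1 read 4337 and 4131 in prolonged seedlings, against 5548 and 5466 in control seedlings (log2 fold change −0.38, adjusted p = 0.117), and LHCB4.2 read 866 and 698 in prolonged seedlings, against 695 and 675 in control seedlings (0.18, adjusted p = 0.539). The isoforms of this minor antenna protein of photosystem II thus had fold changes of either sign, only LHCB4.3 passed, and the difference between isoforms was not tested. In the photosystem list 0 of 5 passed in limma, where 4 had an unadjusted p under 0.05. Only PGRL1B, of cyclic electron flow, had a fold change above 0, at 229 and 229 in prolonged seedlings, against 154 and 151 in control seedlings (log2 fold change 0.58, adjusted p = 0.176). The arrays of the groups overlapped for PSAN, at 2803 and 2235 in prolonged seedlings, against 2419 and 3602 in control seedlings.

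The next falls are of single genes that no list held. AT4G01150 (CURT1A), which bends thylakoid membranes at grana margins, read 3153 and 2531 in prolonged seedlings, against 4544 and 4516 in control seedlings (log2 fold change −0.68 ± 0.14 SE, limma adjusted p = 0.0174). CaS, the thylakoid calcium-sensing protein, read 168 and 180.4 in prolonged seedlings, against 291 and 331 in control seedlings (log2 fold change −0.84 ± 0.17 SE), and NdhN, a subunit of the chloroplast NADH dehydrogenase-like complex, 231 and 313 in prolonged seedlings, against 425 and 543 in control seedlings (−0.84 ± 0.19 SE). HCF101, an iron-sulfur scaffold needed for photosystem I, read 154 and 142 in prolonged seedlings, against 252 and 238 in control seedlings (−0.72 ± 0.18 SE), and failed without any 1 of the 6 arrays. AT4G01150, CaS and NdhN each passed in 4 of 6 such fits.

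In chlorophyll and heme synthesis both measured uroporphyrinogen decarboxylase genes fell, 2 of 6 well-measured members against the same background of 6.52%, and 0 rose. HEME1 read 210.0 and 173 in prolonged seedlings, against 345 and 374 in control seedlings (log2 fold change −0.91 ± 0.19 SE, limma adjusted p = 0.0151) and HEME2 fell by 0.73. The remaining 4 did not pass: CHLM, the Mg-protoporphyrin methyltransferase, read 587 and 464 in prolonged seedlings, against 552 and 596 in control seedlings (log2 fold change −0.14, adjusted p = 0.681), and PORB, a protochlorophyllide reductase, 851 and 931 in prolonged seedlings, against 1057 and 819 in control seedlings (−0.06, 0.889). HEMB1 and AT1G74470 had log2 fold changes of −0.34 and −0.27. With each array left out in turn HEME1 passed in 4 of 6 fits and HEME2 in 2. Neither HEME1 nor HEME2 passed without control replicate 2 or without prolonged replicate 2. HEME2 also failed after median centring and without a filter.

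Of 9 well-measured antioxidant and thioredoxin genes 3 fell, where 6.52% of all well-measured probe sets did, and 0 rose, with a median of −0.39. NTRC, a chloroplast protein that joins a thioredoxin reductase to a thioredoxin, read 204 and 164 in prolonged seedlings, against 297 and 337 in control seedlings (log2 fold change −0.79 ± 0.18 SE, adjusted p = 0.0271). Thioredoxin Y2 (ty2) read 427 and 334 in prolonged seedlings, against 669 and 619 in control seedlings (−0.77 ± 0.18 SE), and the glutathione reductase GR 484 and 445 in prolonged seedlings, against 676 and 742 in control seedlings (−0.61 ± 0.14 SE). In all 3 both prolonged arrays lay below both control arrays. At mean signals of 500 to 1000, where ty2 and GR lay, 17.3% of tested probe sets fell.

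Other members of the redox list did not pass. ATHM2, an m-type thioredoxin, read 1480.3 and 1392 in prolonged seedlings, against 1989 and 1778 in control seedlings (adjusted p = 0.0904), and TRXF2, an f-type thioredoxin, read 301 and 416 in prolonged seedlings, against 329.8 and 305 in control seedlings (log2 fold change 0.16). TAPX, the thylakoid ascorbate peroxidase, which lay just under the level rule, read 101 and 96.3 in prolonged seedlings, against 197 and 157 in control seedlings (adjusted p = 0.0605). The 3 falls were 0 after median centring, without control replicate 1, without control replicate 2, without prolonged replicate 2 and without the intensity trend.

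Of 4 well-measured chaperones 1 passed, where 12.5% of all well-measured probe sets did, so the count is no result about chaperones. It was Cpn60beta2, a subunit of the chloroplast chaperonin that folds Rubisco, at 323 and 247 in prolonged seedlings, against 595 and 633 in control seedlings (log2 fold change −1.12 ± 0.17 SE, limma adjusted p = 0.00309). Its relative Cpn60beta4 read 117 and 82.7 in prolonged seedlings, against 145 and 187 in control seedlings and did not pass. Cpn60beta3, which did not pass either, read 116 and 97.8 in prolonged seedlings, against 106 and 108 in control seedlings. MAP1D, an organellar methionine aminopeptidase, read 129.6 and 118 in prolonged seedlings, against 262 and 198 in control seedlings (log2 fold change −0.88 ± 0.21 SE). MDH, the NAD-dependent malate dehydrogenase of plastids, read 302 and 322 in prolonged seedlings, against 502 and 576 in control seedlings (−0.79 ± 0.16 SE). Cpn60beta2 passed without each array in turn, MDH in 4 of 6 such fits and MAP1D in 1.

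Among other fallers with a function name GAPC2, a cytosolic glyceraldehyde-3-phosphate dehydrogenase, read 3547 and 3403 in prolonged seedlings, against 5252 and 4843 in control seedlings (log2 fold change −0.54 ± 0.12 SE), and F2KP, which makes and removes the regulator fructose-2,6-bisphosphate, 196 and 178 in prolonged seedlings, against 311 and 300.3 in control seedlings (−0.71 ± 0.17 SE). CYTC-1, cytochrome c, read 842 and 876 in prolonged seedlings, against 1184 and 1189.7 in control seedlings (−0.47 ± 0.12 SE), the 1 of 6 well-measured nuclear respiration genes to pass, where 12.5% of all well-measured probe sets did. All 6 had fold changes below 0 under each scaling tried (median −0.45), that of SDH2-2 turning above 0 without prolonged replicate 2, and the succinate dehydrogenase gene SDH2-1 read 284 and 268 in prolonged seedlings, against 406 and 398 in control seedlings (adjusted p = 0.0605). GAPC2 passed in 2 of 6 fits with an array left out, and F2KP and CYTC-1 in 0.

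Of 67 well-measured genes of the plastid genome 7 fell and 0 rose, with a median of −0.16, where 6.52% of all well-measured probe sets fell and 5.99% rose. The number of falls is near that background and is not read as a result about plastid genes. Of all tested probe sets, 17.3% fell at a mean signal of 500 to 1000 and 30.6% at 1000 to 2000, the levels at which the plastid fallers lay. The 7 were rpoC2, rpoC1 and rpoA, subunits of the plastid RNA polymerase, the ribosomal protein genes rps15, rps2 and rpl16, and petA, for cytochrome f. rpoA, which is encoded apart from the other 2, read 750.0 and 647 in prolonged seedlings, against 1163 and 1308 in control seedlings (log2 fold change −0.82 ± 0.13 SE), and rpl16 901 and 709 in prolonged seedlings, against 1459 and 1327 in control seedlings (−0.80 ± 0.14 SE). Both passed without each of the 6 arrays in turn, and petA in 2 of 6 such fits. The rises depended on scaling and on 1 control array: quantile normalization gave 7 rises and 7 falls, cyclic loess 5 and 8, leaving out control replicate 1 gave 15 and 9, and leaving out control replicate 2 gave 0 and 17. The one-cycle labelling named in the labels primes on poly(A) tails, which most plastid transcripts lack, so these signals are no measure of total plastid RNA. Of 3 well-measured mitochondrial genome genes cox1 rose (0.72 ± 0.17 SE), on signals of 449 and 347 in prolonged seedlings, against 241 and 238 in control seedlings, but passed in 1 of 6 fits with an array left out and failed after median centring.

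MT1C, a metallothionein, which binds metal ions, read 2690.5 and 2046 in prolonged seedlings, against 4442 and 4317 in control seedlings (log2 fold change −0.90 ± 0.14 SE, limma adjusted p = 0.00392). bHLH115, a factor of iron deficiency responses, read 186 and 203 in prolonged seedlings, against 365 and 295 in control seedlings (log2 fold change −0.75 ± 0.17 SE). OSM34, an osmotin of the thaumatin family, had unequal prolonged arrays, 199 and 95.0 in prolonged seedlings, against 248 and 365 in control seedlings (−1.13 ± 0.31 SE, adjusted p = 0.0497). ECS1 and LCR68, a small cysteine-rich protein, fell by 0.67 and 0.67, and scpl46, a serine carboxypeptidase-like gene, by 0.71. With each array left out in turn MT1C passed in 6 of 6 fits, ECS1 in 4, bHLH115 and LCR68 in 1 and scpl46 in 0.

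Beside OSM34, the defensin PDF1.2b read 286 and 370.0 in prolonged seedlings, against 207 and 179 in control seedlings (0.75 ± 0.20 SE, adjusted p = 0.0491), on a probe set that can match similar transcripts. Both calls are marginal: with each of the 6 arrays left out in turn, OSM34 passed in 2 of 6 fits and PDF1.2b in 0.

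HRGP1, a hydroxyproline-rich glycoprotein of the wall, read 218 and 326 in prolonged seedlings, against 539 and 496 in control seedlings (log2 fold change −0.96 ± 0.20 SE), also on a probe set that can match similar transcripts. It was the 1 of 7 well-measured genes of the cellulose and extensin list to pass, where 12.5% of all well-measured probe sets did. Among root markers EXPA7 read 27.5 and 50.1 in prolonged seedlings, against 105 and 86.7 in control seedlings, and EXPA18 24.1 and 11.5 in prolonged seedlings, against 60.6 and 66.3 in control seedlings. With PYK10, these 3 of 6 listed root markers were lower in both prolonged arrays and did not pass (adjusted p = 0.0834, 0.0575 and 0.169), and their part in the fall of HRGP1 was not tested. UGT72E2, which adds glucose to lignin precursors, read 169 and 145 in prolonged seedlings, against 257 and 285 in control seedlings (−0.79 ± 0.18 SE), and failed without any 1 array. It was the 1 of 12 well-measured UDP-glycosyltransferases to pass, where 12.5% of all well-measured probe sets did. PGY1, a cytosolic ribosomal protein, read 1117 and 1195 in prolonged seedlings, against 1563 and 1602 in control seedlings (−0.45 ± 0.12 SE) and also failed without any 1 array.

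Lists with 4 or more well-measured members of which 0 passed in limma were the photosystem subunits, abscisic acid and desiccation genes (6 members, median −0.15), glutathione transferases and glutaredoxins (5, −0.36), sulfur and nitrogen assimilation (4, 0.23), expansins and xyloglucan enzymes (8, −0.18), histones (4, −0.17), tubulin and actin (7, −0.08) and endoplasmic reticulum folding (5, 0.04). Of these, members with an unadjusted p under 0.05 numbered 4, 0, 2, 0, 1, 0, 1 and 2. A miss of the threshold does not show that these groups were alike. The level rule also hides calls. With low-signal members counted, 2 of 11 tested genes of the glutathione list (GSTU25 and GSTU22) passed and were lower. In the sulfur and nitrogen list 1 of 7 was higher, and of 20 expansin and xyloglucan genes 1 was higher and 1 lower. In the glutathione list 1 fall passed after quantile normalization or cyclic loess, with an offset, with the lowest 50% left out, with the replicate number as a block and without prolonged replicate 1, and in the photosystem list 1 passed without prolonged replicate 1. Across the nuclear lists 13 of 169 well-measured genes rose and 18 fell, where 5.99% and 6.52% of all well-measured probe sets did.

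**Figure D4:**
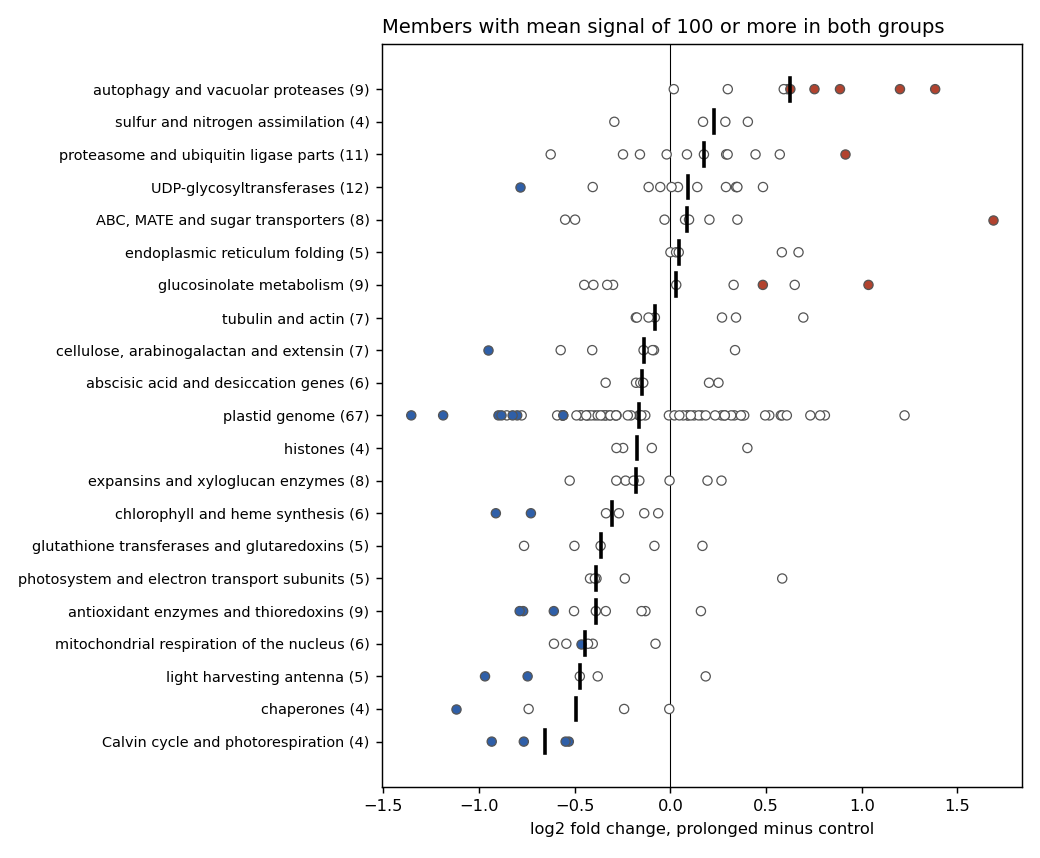
Log2 fold change (prolonged minus control, x axis) of each well-measured member of the 21 lists with 4 or more such members, whose number stands in parentheses. Red points passed and were higher, blue points passed and were lower, open points did not pass, and black bars are medians. Autophagy and vacuolar proteases lie farthest right, with a median of 0.63 and 5 of 9 passing, and the Calvin cycle and photorespiration farthest left, with −0.66 and 4 of 4.

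A further 332 probe sets passed with a group mean under 100, 229 higher and 103 lower. A probe set that passes only through its high group had to differ, so these counts describe the table and no more. Just inside the level rule, among calls with 1 symbol, lay AT2G25830, whose lower group mean was 100.2, AT3G25660 (101.2) and AT4G27435 (101.9). Just outside lay AT5G01210 (99.0), AT3G47250 (98.8) and ARL (98.6). ARL, a gene of organ growth, read 253 and 230.5 in prolonged seedlings, against 98.6 and 98.6 in control seedlings (log2 fold change 1.29 ± 0.18 SE).

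Among the 26 named genes outside the level rule, 17 rose and 9 fell. Single risers were as follows: GH9B13, an endoglucanase family gene, read 234 and 191 in prolonged seedlings, against 74.4 and 111 in control seedlings, PME61, a pectin methylesterase, 159 and 153 in prolonged seedlings, against 87.3 and 73.1 in control seedlings, and EXLA1, an expansin-like gene, 104 and 105 in prolonged seedlings, against 40.7 and 19.3 in control seedlings. An expansin of another class, EXPB2, fell, at 38.1 and 59.8 in prolonged seedlings, against 121 and 105 in control seedlings. CYP71B26 and CYP71B23, cytochrome P450 genes, rose by log2 fold changes of 1.44 and 1.33, while 0 of the 3 well-measured P450 genes passed.

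NANA, an aspartic protease, fell, at 64.0 and 39.3 in prolonged seedlings, against 207 and 216 in control seedlings (log2 fold change −2.07 ± 0.29 SE, limma adjusted p = 0.00183), as did GSTU22, a tau class glutathione transferase, at 30.6 and 78.8 in prolonged seedlings, against 138 and 176 in control seedlings. AUR3, a mitotic Aurora kinase, fell at low signal, at 29.0 and 39.1 in prolonged seedlings, against 83.3 and 95.7 in control seedlings. Among the risers GPDHC1, a cytosolic glycerol-3-phosphate dehydrogenase, read 52.3 and 59.8 in prolonged seedlings, against 12.2 and 5.50 in control seedlings, the control signals lying below 23.5, the level of the weakest probe sets kept, so its fold change is not exact. ATA27, the 1 measured gene of 5 anther and tapetum markers, read 89.7 and 116 in prolonged seedlings, against 3.98 and 20.5 in control seedlings, and the part of flower-type transcripts in the results was not tested. Of the other low-signal risers TBL38, nad4L, SUFE2 and PDF1.4 had log2 fold changes of 0.88 to 1.66, and of the other fallers DFR, scpl29, UPP and ATATH8 had −1.79 to −1.03. SBT3.5, FYD, RXF26, WSD1 and AT5G64120 also rose and GSTU25 fell. In these 6, as in EXLA1 and ATA27, at least 1 array of the lower group read under 23.5, so no exact fold change is given. No seed, guard cell or xylem marker was found by name, so these cell types could not be checked.

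Temporal seedlings, which received 1 spray 24 h before harvest, share the controls, and their signals are given side by side only. GAMMA-VPE read 2615 and 2219 in prolonged and 1975 and 1792 in temporal seedlings. LrgB read 546 and 465 in prolonged and 608 and 724 in temporal seedlings. ALN read 359 and 309 in prolonged and 282 and 297 in temporal seedlings, and CCL 1574 and 1499 in prolonged and 1577 and 1856 in temporal seedlings. For Cpn60beta2 the signals were 323 and 247 in prolonged and 448 and 372 in temporal seedlings. These temporal signals lay between those of the prolonged and control arrays for GAMMA-VPE, LrgB, ALN and Cpn60beta2, and above the prolonged signals for CCL. The genes were picked by no rule, and others differed. OSM34, lower in prolonged seedlings, read 543 and 661 in temporal seedlings, against 248 and 365 in control seedlings. PDF1.2b, higher in prolonged seedlings, read 154 and 189 in temporal seedlings, against 207 and 179 in control seedlings. For scpl46, a faller, the temporal signals, 158 and 173, lay below the prolonged ones, 211 and 182.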

How the data were processed

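Signals of 6 ATH1 arrays, 2 per group, were used as the authors deposited them, as intensity values on a linear scale. Per the submitters' processing notes the tools were GCOS and MAS5 (versions and array build not given in the sources used here). The mean signal after trimming 2% at each end was 100.01 on every array, so the arrays had been scaled before deposit. Median signals were 53.0 to 58.7, and the number of arrays limits precision. The 64 Affymetrix control probe sets were not tested.

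The deposited signals were taken to log2, and 1 model over the 6 arrays was fitted in limma 3.58.1 (R 4.3.3, variance prior with an intensity trend, 3 residual and 7.96 prior degrees of freedom). Probe sets in the lowest 30% by mean log2 signal over the 6 arrays were not tested, and p-values were adjusted over all 15922 tested. No coordinates were used, and TAIR10.1 served for names only. Of 22746 probe sets 13513 had 1 symbol.

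The genes and the lists, 53 with a gene in the table, were chosen with earlier results of these data known. Named genes were the 15 largest well-measured rises and 15 largest falls with 1 symbol, arrays that did not overlap and an adjusted p under 0.05, outside the 10 largest of the table each way, and up to 4 passing well-measured members of each list with at least 4 such members. All well-measured passing genes with a function name, members given as values and the low-signal genes were added after values were seen. Replicate numbers did not pair the arrays: deviations of same-numbered arrays correlated at 0.01 between the prolonged and control groups. The script was checked on simulated data in which the scatter depended on signal level alone. That check cannot decide whether the calls that need the intensity trend hold, since it builds the trend in.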

Additional observations from a re-analysis of the deposited data

How the results depend on the processing

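The 2 counts of calls, 1107 over all tested and 775 over well-measured probe sets, stayed within 1.5 times under 8 of the 9 alternatives other than leaving out an array. They were 1088 and 775 after quantile normalization, 856 and 556 after median centring, 1120 and 791 after cyclic loess, 1203 and 826 with an offset, 880 and 634 without a filter, 1194 and 877 with the lowest 50% left out, and 812 and 609 with the 2 groups alone. The exception was the fit without the intensity trend, with 47 (42 higher, 5 lower) and 12 (11 higher, 1 lower). With each array left out in turn they ran from 633 to 897 and from 463 to 578, the lowest without prolonged replicate 1 (259 higher and 374 lower over all tested). Of calls over all tested, 54.2% were higher, against 40.9% without prolonged replicate 1, 66.1% without control replicate 1 and 67.2% without control replicate 2. With the replicate number as a block 1046 and 733 passed. The numbers share no stated source, and same-numbered arrays correlated in their deviations at 0.01 (prolonged and control), −0.06 (prolonged and temporal) and 0.01 (temporal and control). Of 97 named genes 0 reversed, 46 passed without each of the 6 arrays, 67 passed under the other 8 alternatives and 3 without the trend. The cause of these losses was not tested. Signals near the background limit what the array can show.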
